A study of Mus musculus with 91 samples.

Results

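The miR-23, miR-27 and miR-24 families are made from paralogous clusters, and 6 of their mature miRNAs were followed here. mmu-miR-23a-3p, mmu-miR-27a-3p and mmu-miR-24-2-5p belong to the cluster on chromosome 8, mmu-miR-23b-3p and mmu-miR-27b-3p to the cluster on chromosome 13, and mmu-miR-24-3p is encoded by both. The species prefix is left out from here on. They are taken by name from the 1504 mature miRNAs of the main count table. Small RNA was measured by CAS-seq, a library method for very small inputs in which Cas9 removes unwanted adapter products. The series holds 91 libraries, of which 62 are from embryos separated into extraembryonic ectoderm (Exe) and epiblast (Epi) at E6.5 or E7.5. The embryos, labelled C57BL/6 male X F1 female, came per the methods from B6D2F1 females (C57BL/6J crossed with DBA2) and males that carry an Oct4-EGFP transgene on a C57BL/6J background, so controls and mutants share it. They were either control or lacked Dnmt1 (Dnmt1-KO), both Dnmt3a and Dnmt3b (Dnmt3a/3b-DKO) or all 3 genes (Dnmt-null). Mutants were made by injecting zygotes with mRNA of the base editor hA3A-eBE3-Y130F and sgRNAs that introduce stop codons, so each embryo was edited on its own, and whether a library pooled embryos is not given in the sources used here. Small RNA does not measure the Dnmt mRNAs, so these libraries hold no check of the targeted genes. Each group has 4 libraries, except 3 for control Epi and 3 for Dnmt-null Epi at E7.5. The other groups are androgenetic haploid embryonic stem cells (AG-haESCs, C57BL/6, grown with 2i inhibitors) and semi-cloned (SC) embryos, which arise after injection of such a cell into an oocyte. Among these, WT stands for unmodified cells, DKO for cells in which the H19-DMR and the IG-DMR were deleted, and Mir-6KO for cells expanded from single DKO cells in which let-7b and 5 miRNAs of the Dlk1-Dio3 region (miR-127, miR-369, miR-409, miR-540, miR-541) were targeted. SC embryos were WT, Dnmt-null, DKO or DKO;Dnmt-null at E6.5, and control (from DKO cells) or Mir-6KO;Dnmt-null at E7.5, with 3 libraries each. Legends of the paper's main figures name the E6.5 material of WT, Dnmt-null and DKO SC embryos as epiblast. They name no tissue for the other SC groups.

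The miRNAs of each cluster are cut from a shared primary transcript, and the mature strand guides Argonaute proteins to mRNAs that pair with its seed, bases 2 to 8. The miR-23, miR-27 and miR-24 families are known for roles in endothelial cells, muscle, fat and the differentiation of blood cells. Paralogs with the same seed can pair with the same targets, while each cluster is transcribed from its own locus.

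The mature sequences show which reads can be told apart, and they are given 5′ to 3′ from RefSeq (GRCm38.p6) with the seed in capitals.
miR-23a-3p: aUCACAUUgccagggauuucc
miR-27a-3p: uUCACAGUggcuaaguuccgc
miR-27b-3p: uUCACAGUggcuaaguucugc
miR-24-2-5p: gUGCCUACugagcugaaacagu
miR-24-3p: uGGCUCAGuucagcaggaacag
Of the 6 members, 5 had a mature entry in the RefSeq table, and miR-23b-3p is given by name only. miR-27a-3p and miR-27b-3p share the seed and differ at 1 of 21 positions, C19U, with positions counted from 1 at the 5′ end of miR-27a-3p. The seed of miR-24-2-5p is also that of miR-24-1-5p, the matching arm of the chromosome 13 hairpin, with which it shares the first 16 bases.

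In GRCm38, the build to which the authors aligned, the first cluster lies on the plus strand at chr8:84208518-84208921, a span of 404 bases. Its hairpins Mir23a and Mir27a overlap no other gene in the GRCm38 annotation, and Mir24-2 overlaps an exon of the non-coding RNA Gm26532. The second cluster lies on the plus strand at chr13:63300484-63301275, a span of 792 bases, within the gene 2010111I01Rik. Mir23b is intronic in all 9 transcripts that cover it, Mir27b lies over an exon of 1 of 9 and Mir24-1 over an exon of 4 of 11. miR-24-3p sits in both miR-24 hairpins, shown here with the mature miRNA in capitals because its reads cannot be assigned to one locus.
Mir24-2: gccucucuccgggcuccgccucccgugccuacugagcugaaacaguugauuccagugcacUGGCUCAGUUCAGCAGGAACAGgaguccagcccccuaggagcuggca
Mir24-1: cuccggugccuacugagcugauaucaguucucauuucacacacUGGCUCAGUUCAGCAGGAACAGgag
Counts of miR-24-3p can therefore hold reads from both clusters. Hairpins of the miR-3074 family lie antisense to the miR-24 hairpins, and miR-24-3p had exactly the counts of miR-3074-5p in 88 of 88 libraries of the main table, as miR-24-2-5p had those of miR-3074-2-3p. Reads of the opposite strands cannot be told apart in these counts.

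Total counts ranged from 45242 to 600821 per library at E6.5 and from 266379 to 2394918 at E7.5 in the dissected tissues. A level is given as CPM, a library's counts scaled to the same total in every library. An amount of 3 counts, the upper limit that a count of 0 allows, was worth 4.99 to 66.3 CPM at E6.5 and 1.25 to 11.3 CPM at E7.5, for counting error only. The tissues carried their own markers: the summed level of 5 epiblast miRNAs (miR-302a/b/c/d-3p and miR-367-3p) was 130389 to 200354 CPM in E6.5 Epi control and 17588 to 30822 CPM in E6.5 Exe control. That of 6 miRNAs of the Sfmbt2 cluster, abundant in trophoblast, was 38466 to 69072 CPM in E6.5 Exe control and 5747 to 26338 CPM in E6.5 Epi control. In bulk tissue, fewer cells with a miRNA and less of it per cell cannot be told apart. Differences were tested with the quasi-likelihood F test of edgeR, and a miRNA was called at a Benjamini-Hochberg adjusted p under 0.05 over all miRNAs tested. Nothing in the labels ties libraries to separate litters or days, so p-values measure the spread between these libraries.

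miR-27b-3p was the most abundant member in every group. In E6.5 Epi control it averaged 13099 ± 2916 CPM (SD, n = 4), rank 17 of the 889 miRNAs detected there. The other members were far lower in these libraries, at 345 ± 81.6 CPM for miR-23b-3p, 221 ± 5.26 CPM for miR-27a-3p, 115 ± 45.0 CPM for miR-24-3p, 45.2 ± 34.7 CPM for miR-23a-3p and 20.4 ± 7.61 CPM for miR-24-2-5p. These are levels of miRNAs of nearly equal length, and they are not corrected for how well each one is ligated. Members of one cluster were unequal: counts of miR-27b-3p summed over a group were 24.5 to 72.8 times those of miR-23b-3p over the 8 Epi groups and 15.6 to 54.5 times over the 8 Exe groups. On chromosome 8, miR-27a-3p was 3.59 to 12.7 times miR-23a-3p in Epi and 2.09 to 7 times in Exe.

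**Figure D1:**
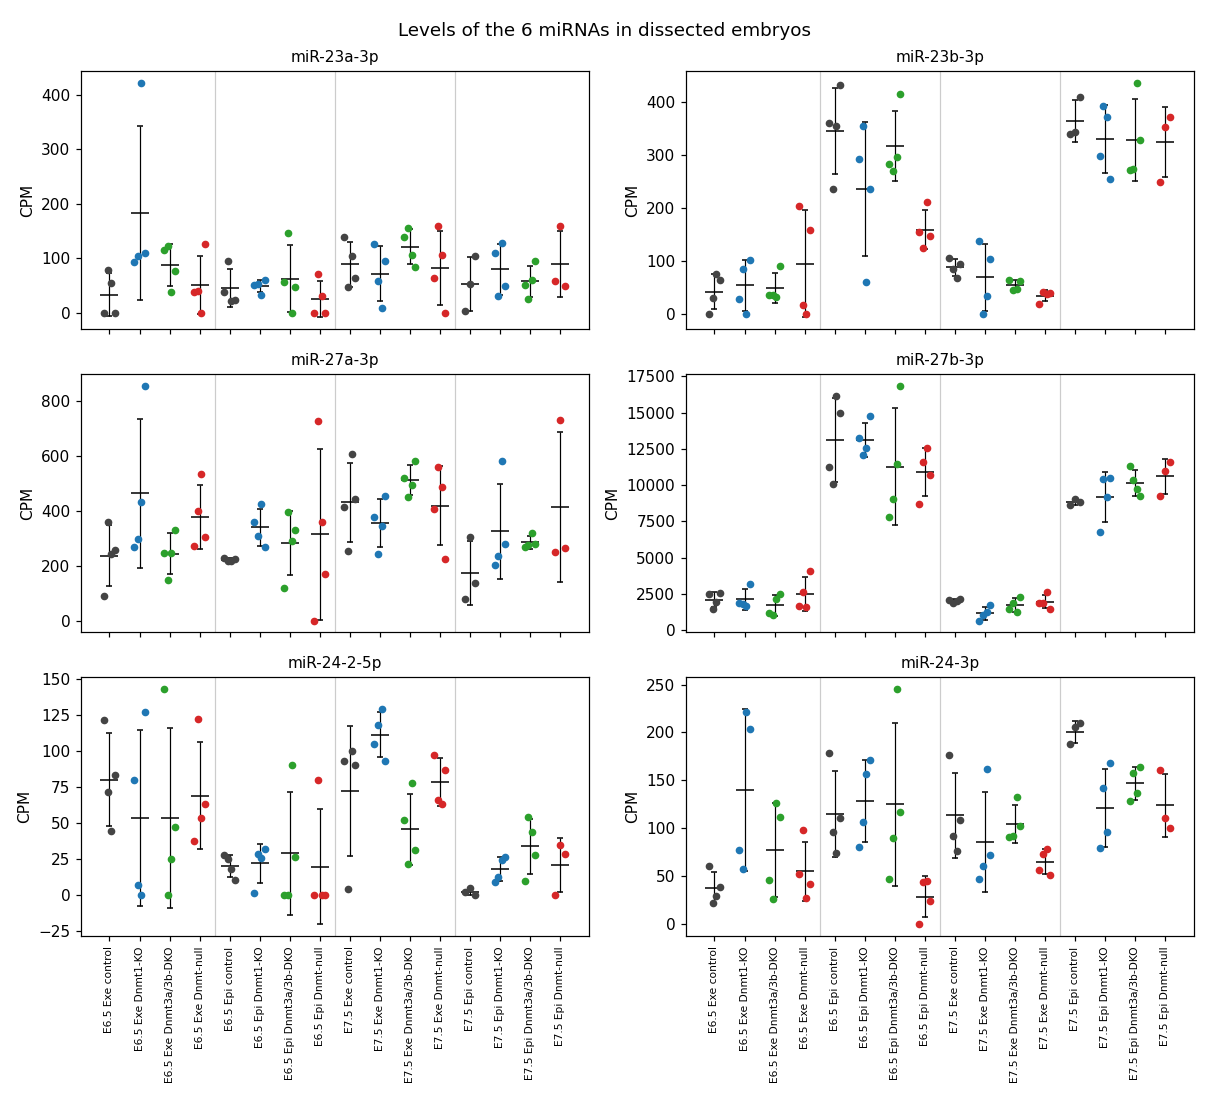
CPM of each miRNA (y axes, linear, a scale for each) by group of dissected embryos (x axes); points are libraries, bars the mean ± SD, and colours the genotypes. miR-27b-3p lies between 6793 and 16839 CPM in the 30 Epi libraries and between 657 and 4078 CPM in the 32 Exe libraries, while the chromosome 8 miRNAs miR-23a-3p and miR-27a-3p overlap between tissues.

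The comparison of Exe with Epi in control embryos asked whether the clusters differ by tissue, and miR-27b-3p and miR-23b-3p of chromosome 13 were lower in Exe at both stages. At E6.5, 3 of 6 members were called, all lower in Exe and all encoded on chromosome 13 (miR-24-3p on chromosome 8 too), where 15.4% of all miRNAs tested were called lower, 14% higher and 29.4% in either direction. miR-27b-3p was at 2464, 1439, 1920 and 2538 CPM in the Exe libraries and at 11240, 10048, 16143 and 14964 CPM in the Epi libraries. It was 6.59-fold lower in Exe (log2 fold change -2.72, SE 0.22, adjusted p 4.68e-08 by edgeR), and no Exe library reached an Epi library. miR-23b-3p was at 0, 28.8, 74.2 and 63.9 CPM in Exe and at 360, 235, 355 and 432 CPM in Epi. It was 7.84-fold lower (log2 fold change -2.97, SE 0.53, adjusted p 3.62e-04), again without overlap, and the log2 difference stayed between -3.54 and -2.68 when each library was left out. miR-24-3p was at 60.8, 21.6, 29.7 and 38.4 CPM in Exe, or 3 to 6 counts a library, and at 178, 96.0, 73.7 and 111 CPM in Epi.

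miR-24-3p was lower by a smaller factor, 3.34-fold (log2 fold change -1.74, SE 0.52, adjusted p 0.0175). That call was lost when Epi control replicate 1 (adjusted p 0.0568) or Exe control replicate 2 (adjusted p 0.0548) was left out. With only these groups in the fit, the call of miR-24-3p was also lost (adjusted p 0.0847) and miR-24-2-5p was called higher in Exe (log2 fold change 1.99, SE 0.68, adjusted p 0.0446), and without a filter on low counts miR-24-3p was at an adjusted p of 0.0799. The members encoded on chromosome 8 alone did not pass in the fit of all 4 control groups: on the log2 scale miR-23a-3p differed by -0.41 (SE 1.03), miR-27a-3p by 0.04 (SE 0.44) and miR-24-2-5p by 1.89 (SE 0.92, adjusted p 0.127). The signs of miR-23a-3p and miR-27a-3p changed when single libraries were left out. The levels of miR-24-2-5p, 122, 71.9, 44.5 and 83.1 CPM in Exe and 27.9, 24.9, 17.9 and 10.9 CPM in Epi, did not overlap although the test did not pass.

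At E7.5, miR-27b-3p and miR-23b-3p were again called lower in Exe, where 10.9% of all miRNAs tested were called lower, and miR-24-2-5p was called higher, where 22.2% were (33.2% in either direction). miR-27b-3p was at 2115, 1882, 2029 and 2167 CPM in Exe and at 8643, 9023 and 8802 CPM in Epi. The difference was 4.58-fold (log2 fold change -2.20, SE 0.22, adjusted p 6.97e-07), and replicates lay close together in both tissues. miR-23b-3p was at 105, 85.2, 66.7 and 94.1 CPM in Exe and at 340, 343 and 410 CPM in Epi (log2 fold change -2.14, SE 0.50, adjusted p 0.0026), without overlap. miR-24-2-5p, the 5p arm of the chromosome 8 miR-24 hairpin, was at 93.4, 4.67, 100 and 90.1 CPM in Exe and at 2.58, 4.79 and 0 CPM in Epi. Its log2 fold change was 4.69 (SE 1.12, adjusted p 0.0028), although Exe replicate 2 lay at the Epi level, so the groups overlapped. The Epi values rest on 6, 9 and 0 counts. In Exe its group mean was above that of miR-24-3p in 4 of 8 groups, at 80.3 against 37.6 CPM in E6.5 control and at 112 against 85.5 CPM in E7.5 Dnmt1-KO.

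miR-27a-3p was at 415, 256, 608 and 445 CPM in E7.5 Exe and at 80.0, 305 and 138 CPM in E7.5 Epi (log2 fold change 1.22, SE 0.47, adjusted p 0.0567), which did not pass. By edgeR it was called higher in Exe without Epi replicate 2 (adjusted p 0.0365), without Exe replicate 2 (0.0325) and with library totals alone (0.0464). In these libraries 10 blood and endothelial miRNAs summed to 1702 to 5869 CPM in Exe, where miR-223-3p had no count in any library, and to 466 to 786 CPM in Epi, where miR-144-5p, miR-142a-3p and miR-223-3p had none, and their part in the differences of the chromosome 8 miRNAs was not tested. miR-24-3p did not overlap between the tissues, at 177, 92.2, 76.3 and 108 CPM in Exe and 188, 205 and 209 CPM in Epi, but did not pass (log2 fold change -0.91, SE 0.49, adjusted p 0.168). The median log2 fold change of the 6 members was -1.08 at E6.5 and -0.13 at E7.5, beside -0.16 and 0.00 over all miRNAs tested.

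The 5p arms of the chromosome 13 hairpins of miR-23b and miR-27b gave a further reading of that cluster. miR-23b-5p averaged 12.1 CPM in Exe and 91.4 CPM in Epi at E6.5 (log2 fold change -2.84, SE 0.76, adjusted p 0.0089), and 28.0 and 94.1 CPM at E7.5 (log2 fold change -1.83, SE 0.68, adjusted p 0.0473). miR-27b-5p averaged 3.80 and 58.1 CPM at E6.5 (log2 fold change -4.80, SE 1.42, adjusted p 0.016). Both arms of each of these hairpins were thus called lower in Exe at E6.5. The call of miR-27b-5p was lost without Epi replicate 4 (adjusted p 0.0569) and with the replicate number as a block (0.0537). That of miR-23b-5p at E7.5 was lost without Epi replicate 1 (adjusted p 0.0942) or 2 (0.0706), without Exe replicate 2 (0.0699) or 3 (0.0622), with the block (0.120), without a filter (0.167) and with library totals alone (0.0578). At E7.5 miR-27b-5p averaged 9.81 CPM in Exe and 15.5 CPM in Epi and was not called. The 5p arm of Mir24-1, miR-24-1-5p, was called at neither stage. It averaged 6.07 CPM in Exe and 24.2 CPM in Epi at E6.5, and 41.7 and 32.1 CPM at E7.5, the other direction. The chromosome 8 arms miR-23a-5p and miR-27a-5p had group means of at most 4.16 and 1.75 CPM in the series.

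The tissue difference was then read within each mutant genotype, a comparison chosen after seeing the control result and fitted over all 16 groups of dissected embryos. With the controls, miR-27b-3p was called lower in Exe in 8 of 8 comparisons of genotype and stage, with Epi over Exe folds from 4.32 to 7.46. miR-23b-3p was called lower in 7 of 8, the exception being Dnmt-null at E6.5. Of all miRNAs tested, 26.9% and 29% were called in Dnmt1-KO at E6.5 and E7.5, 21.4% and 21.7% in Dnmt3a/3b-DKO, and 17.9% and 16.3% in Dnmt-null. Those called lower were 13.5% and 10.3%, 11.2% and 11.1% and 8.36% and 6.69%, respectively. In Dnmt1-KO the calls of miR-23b-3p depended on single libraries. At E6.5 its log2 fold change was -2.40 (SE 0.78, adjusted p 0.0171), and the call was lost without Epi replicate 2 (adjusted p 0.0930), Exe replicate 1 (0.0930) or Exe replicate 3 (0.1). At E7.5 it was -2.10 (SE 0.75, adjusted p 0.0272), and the call was lost without Epi replicate 2 (adjusted p 0.0518) or Exe replicate 3 (0.0532). In that group the 5p arm miR-23b-5p averaged 110 CPM in Exe and 102 CPM in Epi (log2 fold change 0.21, SE 0.82), and it did not pass.

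In the E6.5 Dnmt-null libraries, miR-23b-3p was at 203, 16.3, 0 and 158 CPM in Exe, from 27, 2, 0 and 15 counts, and at 155, 124, 210 and 146 CPM in Epi. The tissues overlapped (log2 fold change -0.67, SE 0.79, adjusted p 0.59). The test of the difference itself, the Dnmt-null effect in Exe minus that in Epi, gave 2.52 on the log2 scale (SE 1.11, adjusted p 0.222) and did not pass.

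**Figure D2:**
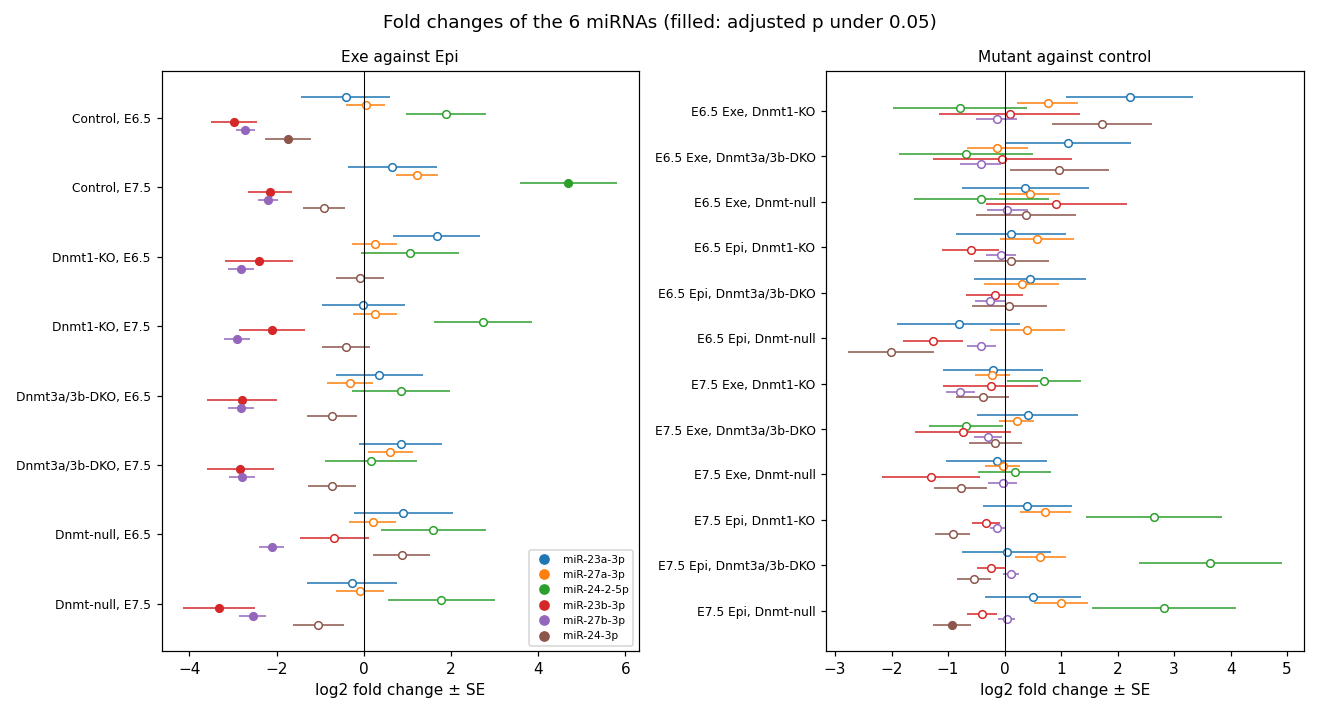
Log2 fold change ± SE from edgeR (x axes) for each member in the comparisons of Exe with Epi within a genotype and stage (left) and of each mutant with control within a tissue and stage (right); filled points have an adjusted p under 0.05. miR-27b-3p is filled and left of 0 in 8 of 8 tissue comparisons, and 1 point, miR-24-3p in E7.5 Epi Dnmt-null, is filled among the mutant comparisons.

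In the order of the 16 group means, the 8 Epi groups stood above the 8 Exe groups for both miR-27b-3p and miR-23b-3p. For miR-27b-3p the step from the lowest Epi group (E7.5 control, 8823 CPM) to the highest Exe group (E6.5 Dnmt-null, 2505 CPM) was the one place where neighbouring groups did not overlap. miR-23b-3p ran from 364 CPM in E7.5 Epi control to 34.0 CPM in E7.5 Exe Dnmt-null, and every pair of neighbours in its order overlapped. miR-24-3p was highest in E7.5 Epi control, at 201 ± 11.5 CPM (SD, n = 3), apart from the next group, and lowest in E6.5 Epi Dnmt-null, at 28.4 ± 21.2 CPM (SD, n = 4). miR-24-2-5p had its lowest group, E7.5 Epi control at 2.46 CPM, apart from the next, E7.5 Epi Dnmt1-KO at 18.1 CPM. miR-23a-3p, from 25.2 to 183 CPM, and miR-27a-3p, from 174 to 512 CPM, had no neighbours that were apart.

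The likeness of patterns over the 16 groups is described by the Pearson correlation of mean log2 CPM, without a test, since the groups differ in depth and share tissue composition. On chromosome 13 miR-23b-3p and miR-27b-3p had r = 0.91. On chromosome 8 the values were 0.72 for miR-23a-3p and miR-27a-3p, 0.65 for miR-27a-3p and miR-24-2-5p and 0.17 for miR-23a-3p and miR-24-2-5p. Paralogs in different clusters had r = -0.46 for miR-27a-3p and miR-27b-3p and r = 0.011 for miR-23a-3p and miR-23b-3p. miR-24-3p had r = 0.70 with miR-23a-3p, 0.49 with miR-27a-3p, 0.43 with miR-23b-3p and 0.22 with miR-27b-3p.

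Likeness was also ranked against the 366 other miRNAs with a mean of at least 50 CPM. Those most like miR-27b-3p were miR-302a-5p (r = 0.99), miR-363-3p (0.98) and miR-302b-5p (0.97), and those most like miR-23b-3p were miR-302b-3p (0.98), miR-302c-3p (0.98) and miR-363-5p (0.97). Of these, miR-302b-3p and miR-302c-3p are in the epiblast marker list used above. By Spearman correlation those most like miR-23b-3p were again miRNAs of the miR-302 cluster, miR-302c-3p (0.95), miR-302a-3p (0.94) and miR-302d-3p (0.92), while for miR-27b-3p they were miR-20b-5p (0.92), miR-96-5p (0.90) and miR-183-5p (0.89), none shared with the first 3. Those most like miR-27a-3p were miR-369-5p (0.83), miR-496a-3p (0.79) and miR-465c-5p (0.77), and those most like miR-23a-3p were miR-487b-3p (0.81), miR-369-5p (0.76) and miR-337-3p (0.72). For miR-24-2-5p they were miR-669f-5p (0.79), miR-467e-5p (0.79) and miR-466g (0.78), and for miR-24-3p miR-374b-5p (0.88), miR-487b-3p (0.84) and miR-340-3p (0.80). By Spearman correlation 1 of the 3 was shared for each of miR-23a-3p, miR-27a-3p, miR-24-2-5p and miR-23b-3p, and 0 for miR-24-3p.

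The balance of paralogs was measured as the share of the chromosome 8 miRNA in the counts of both, which does not depend on how libraries are scaled. For miR-27, the share was 3.57, 20, 11.2 and 9.15% in E6.5 Exe control and 1.98, 2.11, 1.32 and 1.48% in E6.5 Epi control, with every Exe library above every Epi library. The means were 11 ± 6.82% and 1.72 ± 0.382% (SD, n = 4 each, exact two-sided permutation test, p = 0.0286, the smallest this design allows). At E7.5 the shares were 16.4, 12, 23.0 and 17.0% in Exe and 0.917, 3.27 and 1.54% in Epi, again apart (exact permutation p = 0.0571, the smallest 4 against 3 allows). After adjustment over the 60 share comparisons made, the lowest adjusted p was 0.571, so none passed. As no exact permutation p under 0.0286 was possible, a single comparison could not have passed that adjustment. Over all genotypes, 31 of 32 Exe libraries lay above the highest Epi library, at 6.25%, and the remaining Exe library was at 3.57%.

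For miR-23, the share was 48.5 ± 12.5% in E7.5 Exe control (SD, n = 4) and 11.5 ± 9.70% in E7.5 Epi control (SD, n = 3), without overlap (exact permutation p = 0.0571, the smallest possible, adjusted p 0.571). At E6.5 it was 38.5 ± 36.8% in Exe (SD, n = 3, as 1 library had no count of either) and 12.5 ± 11.2% in Epi (SD, n = 4). The E6.5 Exe values rest on 15, 26 and 10 counts, and the groups overlapped (exact permutation p = 0.286). Across genotypes, group means of the miR-27 share ran from 1.72 to 3.70% in Epi and from 11 to 24.6% in Exe, and those of the miR-23 share from 11.5 to 20.9% and from 38.5 to 71.2%. No comparison of shares between genotypes had an exact permutation p under 0.05. In E7.5 Epi, and for miR-23 in E6.5 Exe, the group sizes allowed no p under 0.0571, so those tests could not pass.

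**Figure D3:**
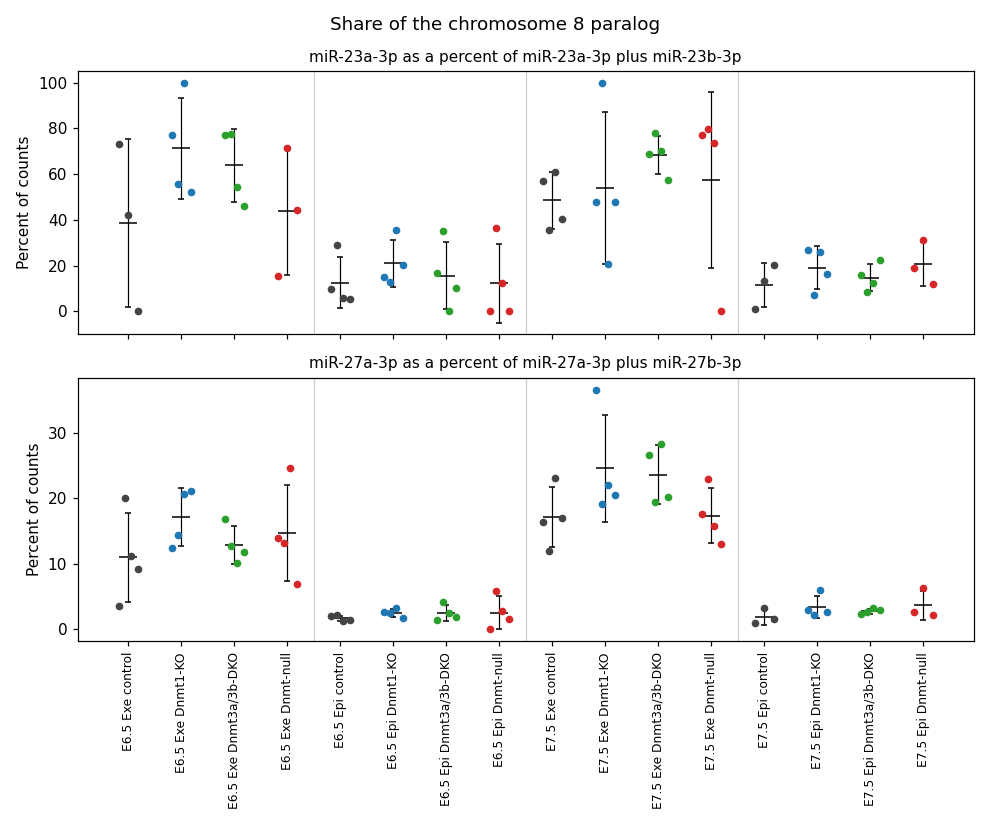
Percent of the paralogs' counts that came from the chromosome 8 miRNA (y axes) for miR-23 (top) and miR-27 (bottom) by group (x axis); points are libraries and bars the mean ± SD. The miR-27 share is 0 to 6.25% in Epi and 3.57 to 36.6% in Exe.

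Between stages in controls, 1 member was called in each tissue. miR-24-3p was 3.19-fold higher in Exe at E7.5 than at E6.5 (log2 fold change 1.67, SE 0.52, adjusted p 0.036), where 10% of all miRNAs tested were called higher, 4.3% lower and 14.3% in either direction. The call was lost without E6.5 Exe replicate 2 (adjusted p 0.106) or 3 (0.0884) or E7.5 Exe replicate 1 (0.139) or 4 (0.0691), and with the replicate number as a block (0.0615). In these Exe libraries blood and endothelial miRNAs summed to 1702 to 5869 CPM at E7.5 and to 525 to 852 CPM at E6.5. Epiblast markers summed to 33368 to 45944 and 17588 to 30822 CPM, and 6 miRNAs of the miR-290 cluster to 75627 to 91685 and 99299 to 154162 CPM. The part of these markers in the result was not tested. miR-24-2-5p was lower in Epi at E7.5 than at E6.5 (log2 fold change -2.92, SE 1.05, adjusted p 0.0475), where 17% of all were called lower, 9.86% higher and 26.9% in either direction. That call was lost without each of the 7 libraries in turn (adjusted p 0.0556 to 0.161) and with the block (0.0787). In the same libraries the Sfmbt2 cluster miRNAs, higher in Exe, summed to 5747 to 26338 CPM in Epi at E6.5 and to 1952 to 2275 CPM at E7.5, and their part in the result was not tested. miR-27b-3p in Exe differed by -0.02 on the log2 scale between stages (95% interval -0.43 to 0.39), and in Epi by -0.54 (SE 0.22, adjusted p 0.0831).

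The comparisons of genotypes asked whether loss of DNA methyltransferases changed these miRNAs, and 1 of 69 tests of a member against control was called over the 12 comparisons. miR-24-2-5p was not tested in E6.5 Epi, where it failed the filter on low counts. Of all miRNAs tested, 0%, 0.532% and 0.532% were called by edgeR for Dnmt1-KO, Dnmt3a/3b-DKO and then Dnmt-null in E6.5 Exe, and 0.733%, 3.42% and 13% in E6.5 Epi. At E7.5 the respective shares were 5.03%, 3.02% and 9.88% in Exe and 16.3%, 7.67% and 33.7% in Epi.

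The called result was miR-24-3p in E7.5 Epi Dnmt-null, at 161, 111 and 100 CPM against 188, 205 and 209 CPM in control (log2 fold change -0.93, SE 0.34, adjusted p 0.0454). Its groups did not overlap, but the call was lost without each of the 6 libraries in turn (adjusted p 0.0516 to 0.156) and with the replicate number as a block (0.0692). The summed epiblast markers were at 105333 to 164935 CPM in these mutant libraries and at 202279 to 212606 CPM in the controls. Blood and endothelial miRNAs summed to 1158 to 1392 CPM against 466 to 786 CPM, and 5 mesenchymal miRNAs to 85.7 to 160 CPM against 277 to 413 CPM. The part of these markers in the result was not tested.

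The study's methods set looser thresholds, an unadjusted p under 0.05 with a log2 change beyond 0.5 either way, and 8 of the 69 tests passed these. Of all miRNAs tested in Exe, 8.78% (E6.5) and 16.8% (E7.5) passed them for Dnmt1-KO, 9.04% and 8.21% for Dnmt3a/3b-DKO, and 13% and 19.4% for Dnmt-null. In Epi the values were 12% and 25% for Dnmt1-KO, 14.9% and 17.8% for Dnmt3a/3b-DKO, and 25.9% and 40.5% for Dnmt-null. In E6.5 Epi Dnmt-null, 2 of 5 members tested passed, both lower. miR-24-3p was at 0, 44.3, 45.0 and 24.4 CPM there, from at most 5 counts (log2 fold change -2.01, SE 0.76, adjusted p 0.0862). miR-23b-3p was at 155, 124, 210 and 146 CPM, from 7 to 18 counts (log2 fold change -1.27, SE 0.53, adjusted p 0.124). All mutant libraries lay below all control libraries for both. In these libraries the summed epiblast markers were at 48473 to 100114 CPM, below the controls, and their part in the result was not tested. One of them, replicate 1, had 45242 counts in all and none of miR-24-3p, miR-27a-3p, miR-23a-3p or miR-24-2-5p.

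In E7.5 Exe Dnmt1-KO, miR-27b-3p was at 657, 1029, 1221 and 1758 CPM, below every control library (log2 fold change -0.78, SE 0.26, adjusted p 0.0907), and it passed those thresholds. It was called when Dnmt1-KO replicate 4 was left out (adjusted p 0.0349). The summed epiblast markers were at 10428 to 37250 CPM in these libraries and at 33368 to 45944 CPM in the controls, and their part in the result was not tested. In E7.5 Epi, miR-24-2-5p passed those thresholds in each mutant, all 3 comparisons resting on the same 3 control libraries with 6, 9 and 0 counts. It was at 9.30, 12.5, 24.1 and 26.5 CPM in Dnmt1-KO (log2 fold change 2.64, SE 1.21, adjusted p 0.162). It was at 10.2, 54.0, 43.7 and 27.7 CPM in Dnmt3a/3b-DKO (log2 fold change 3.64, SE 1.26, adjusted p 0.0875). In Dnmt-null it was at 0, 34.8 and 28.6 CPM, so that 1 library lay with the controls (log2 fold change 2.83, SE 1.28, adjusted p 0.102). The Sfmbt2 cluster miRNAs summed to 1952 to 2275 CPM in the controls, 2887 to 3217 CPM in Dnmt1-KO, 2716 to 5597 CPM in Dnmt3a/3b-DKO and 4127 to 8445 CPM in Dnmt-null, every mutant library above every control, and their part in these differences was not tested. miR-24-3p was at 79.5, 142, 95.7 and 168 CPM in E7.5 Epi Dnmt1-KO, below the controls (log2 fold change -0.92, SE 0.31, adjusted p 0.0507).

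The precision differed widely between members. Over the 12 comparisons with control the SE of the log2 fold change ran from 0.14 to 0.36 for miR-27b-3p, whose estimates lay between -0.78 and 0.12. In E7.5 Epi those were -0.13 (SE 0.14) in Dnmt1-KO, 0.12 (SE 0.14) in Dnmt3a/3b-DKO and 0.04 (SE 0.15) in Dnmt-null. For miR-23a-3p the SE ran from 0.78 to 1.13 and the estimates from -0.81 to 2.21, for miR-23b-3p from 0.25 to 1.25 and from -1.30 to 0.91, and for miR-27a-3p from 0.31 to 0.67 and from -0.22 to 1.0. For miR-24-3p they ran from 0.31 to 0.89 and from -2.01 to 1.72, and for miR-24-2-5p, over 9 comparisons, from 0.65 to 1.28 and from -0.79 to 3.64. In E6.5 Exe, miR-24-3p averaged 140 CPM in Dnmt1-KO and 37.6 CPM in control and was not called.

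Dnmt-null was also compared with the other mutants in each tissue and stage, and 0 members were called by edgeR, while 3 had an unadjusted p under 0.05 and DESeq2 called those 3. Of all miRNAs tested, edgeR called 0% in both of these comparisons in E6.5 Exe. With Dnmt1-KO as the reference it called 10.9% in E7.5 Epi, and with Dnmt3a/3b-DKO as the reference 16.4% there and 3.85% in Exe of that stage. In E6.5 Epi, miR-24-3p differed by -2.13 on the log2 scale against Dnmt1-KO (SE 0.76, adjusted p 0.108, 1.96% of all called) and by -2.10 against Dnmt3a/3b-DKO (SE 0.77, adjusted p 0.199, 1.22% of all called). In E7.5 Exe, miR-27b-3p differed by 0.75 on the log2 scale against Dnmt1-KO (SE 0.26, adjusted p 0.182, 1.17% of all called). Its libraries were at 1903, 1882, 2617 and 1492 CPM in Dnmt-null, and it was called without Dnmt1-KO replicate 4 (adjusted p 0.0446). The 5p arm miR-23b-5p was called the other way in that comparison, at 11.3, 6.87, 13.5 and 2.38 CPM in Dnmt-null against 107, 274, 42.3 and 14.6 CPM in Dnmt1-KO (log2 fold change -3.78, SE 0.91, adjusted p 0.0482). Its call was lost in 5 of 8 fits that leave out a library (adjusted p up to 0.220), with the block (0.117), with library totals alone (0.0537) and with only the groups compared (0.268). Of the 24 tests of a difference in the Dnmt-null effect between tissues or stages, 0 were called by edgeR or DESeq2 and 4 had an unadjusted p under 0.05, where edgeR called 0.912% of all miRNAs at E6.5 and 0.608% at E7.5 between tissues, and 0.608% in Exe and 10.6% in Epi between stages. The lowest adjusted p was that of miR-24-3p in Exe minus Epi at E6.5 (2.80 on the log2 scale, SE 0.89, adjusted p 0.0928).

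In E6.5 Exe Dnmt1-KO, miR-23a-3p was at 93.9, 105, 423 and 110 CPM, above every control library, yet the test did not pass (log2 fold change 2.21, SE 1.12, adjusted p 0.498). The 423 CPM came from replicate 3, in which 309 miRNAs were detected against 575 to 643 in the others. By markers replicate 4 stood apart, with 10 blood and endothelial miRNAs summing to 10820 CPM against 552 to 1368 CPM in the other 3 and with 5617 CPM of epiblast markers against 26048 to 27857 CPM. In replicate 4, 5 mesenchymal miRNAs summed to 4228 CPM against 351 to 696 CPM. That library also had the highest miR-27a-3p (856 CPM) and miR-27b-3p (3211 CPM) of its group, and the part of those markers was not tested. Without it, miR-27b-3p was still called lower in Exe than in Epi of Dnmt1-KO at E6.5 (log2 fold change -3.02, SE 0.33, adjusted p 2.57e-10 by edgeR).

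In AG-haESCs miR-27b-3p was again the most abundant member, at 18932, 19416 and 18976 CPM in WT cells, rank 14 of 977 detected. The share of miR-27a-3p was 2.10 ± 0.266% (SD, n = 3) and that of miR-23a-3p 37.9 ± 2.65% (SD, n = 3) in these cells. DKO cells, with miR-27b-3p at 21959, 20454 and 20339 CPM, had 0 members called against WT by edgeR, where 13.7% of all miRNAs were called, and 0 of 6 had an unadjusted p under 0.05. The median log2 fold change over all miRNAs tested was -0.28. That of miR-27b-3p was 0.16 (SE 0.09, adjusted p 0.379), and DESeq2 called it at 0.54 (adjusted p 1.92e-07) together with miR-27a-3p at 0.76 (adjusted p 0.0374), while miR-23b-3p and miR-24-3p changed sign between the tools.

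The libraries labelled Mir-6KO go against that label. All 6 targeted miRNAs were higher in both than in any of the 3 DKO libraries, with miR-127-3p at 35728 and 44853 CPM against 551 to 594 CPM. Epiblast markers summed to 239331 and 268002 CPM against 924 to 1670 CPM, and 6 miRNAs of the miR-290 cluster, abundant in naive pluripotent cells, to 21338 and 17756 CPM against 126665 to 147189 CPM. The cells behind these libraries thus carried other markers than the DKO cells, and their part in the differences of the members was not tested.

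Between the libraries labelled Mir-6KO and DKO cells, 5 of 6 members were called lower, where 31.7% of all miRNAs were called lower, 20.4% higher and 52.1% in either direction, with a median log2 fold change of -0.82 over all tested and -1.77 over the members. miR-23a-3p was at 56.9 and 33.0 CPM against 263, 242 and 266 CPM (log2 fold change -3.03, SE 0.28, adjusted p 5.60e-05). miR-27a-3p was at 157 and 77 CPM against 588, 445 and 536 CPM (log2 fold change -2.69, SE 0.33, adjusted p 2.95e-04). These chromosome 8 miRNAs were lower by more than the median of all miRNAs. miR-24-2-5p, also of chromosome 8, was at 0 and 36.2 CPM against 32.8 to 106 CPM and was the member not called. miR-23b-3p was at 275 and 317 CPM against 342, 361 and 409 CPM (log2 fold change -0.82, SE 0.19, adjusted p 0.0071), a difference equal to that median. miR-24-3p was at 137 and 74.5 CPM against 165, 124 and 177 CPM (log2 fold change -1.08, SE 0.32, adjusted p 0.0255), and its call was lost without DKO replicate 1 (adjusted p 0.0513) or 3 (0.0660). miR-27b-3p was at 20857 and 22580 CPM, within or above the DKO libraries in CPM. Its fitted log2 fold change was -0.45 (SE 0.10, adjusted p 0.0081) and took the other sign, 0.054, with library totals alone. The share of miR-27a-3p was 0.543 ± 0.288% in the libraries labelled Mir-6KO (SD, n = 2) and 2.43 ± 0.266% in DKO cells (SD, n = 3), without overlap (exact permutation p = 0.2, the smallest possible).

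**Figure D4:**
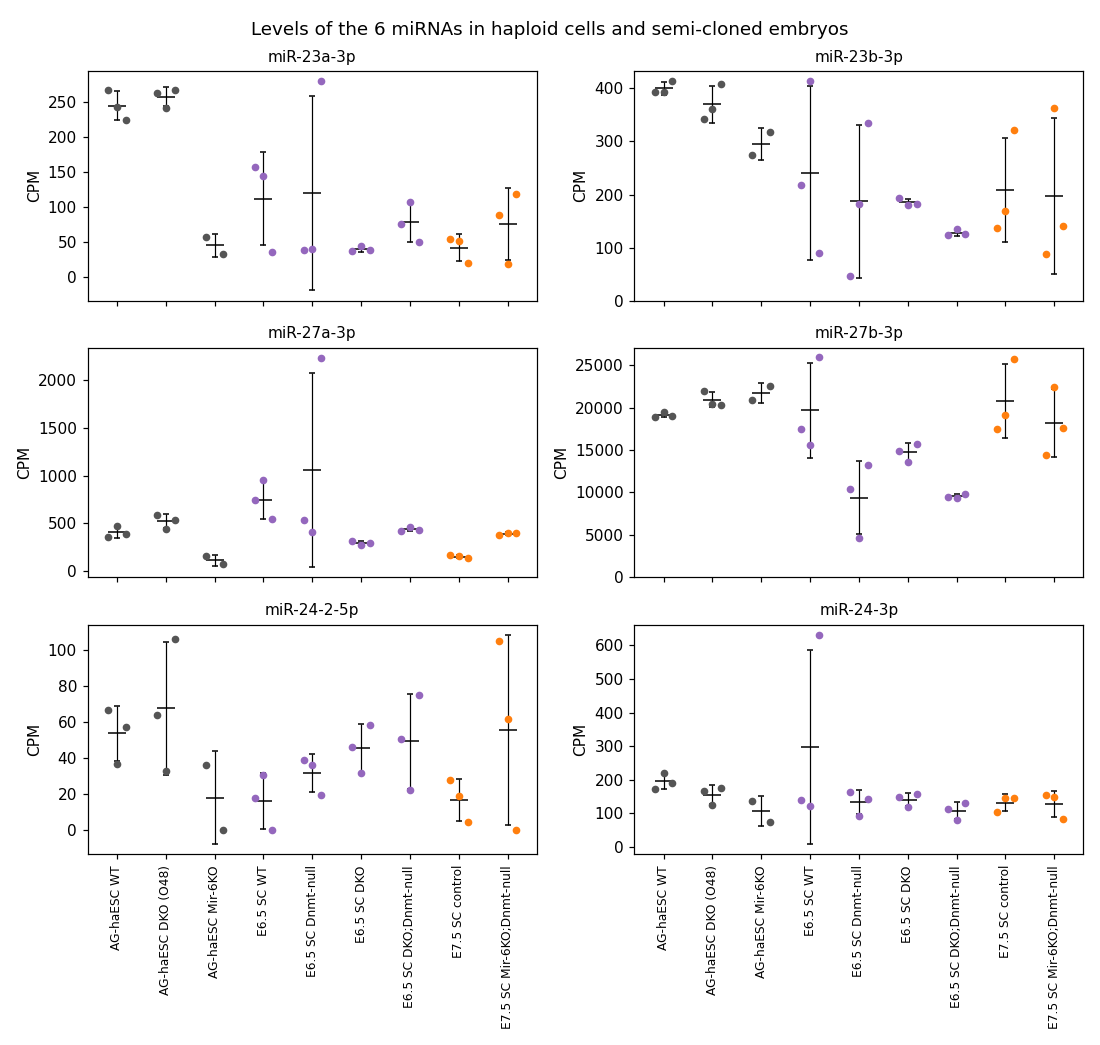
CPM of each miRNA (y axes, linear) in AG-haESCs and SC embryos by group (x axes); points are libraries and bars the mean ± SD, and levels of different sets are shown side by side with no test between them. miR-23a-3p and miR-27a-3p are low in the 2 libraries labelled Mir-6KO, at 33.0 to 56.9 and 77 to 157 CPM.

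Among SC embryos at E6.5, WT replicate 3 stood apart, with epiblast markers at 21252 CPM against 214514 and 195381 CPM in the others. Against the WT libraries, 0 members were called in Dnmt-null SC embryos by edgeR, with 1.52% of all called, while 2 members had an unadjusted p under 0.05 and DESeq2 called miR-27b-3p. miR-27b-3p was at 10353, 4661 and 13187 CPM against 17473, 15536 and 25980 CPM, without overlap (log2 fold change -1.38, SE 0.50, adjusted p 0.211). Without WT replicate 3 the value was -1.01 (SE 0.38, adjusted p 0.116). Epiblast markers summed to 82565 to 122808 CPM in the Dnmt-null libraries, above WT replicate 3 and below the other WT libraries, and their part in the result was not tested. miR-24-3p was at 162, 92.7 and 141 CPM against 139, 123 and 631 CPM (log2 fold change -1.61, SE 0.72, adjusted p 0.263), which became -0.21 (SE 0.34) without that library.

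In DKO SC embryos, 0 members were called against WT by edgeR or DESeq2, with 0.217% of all called by edgeR, and 1 had an unadjusted p under 0.05. It was miR-27a-3p, at 319, 276 and 301 CPM against 742, 955 and 550 CPM, without overlap (log2 fold change -1.47, SE 0.59, adjusted p 0.33, and -1.50, SE 0.60, without WT replicate 3). miR-24-3p, at 147, 118 and 156 CPM, differed by -1.42 on the log2 scale (SE 0.70, adjusted p 0.397), which turned to 0.11 without WT replicate 3.

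DKO;Dnmt-null SC embryos come from a separate count table, so table and genotype cannot be told apart. Against DKO, 4 of 6 members were called, where 18.9% of all were called higher, 16.4% lower and 35.3% in either direction, and they divided by cluster. miR-27b-3p was at 9489, 9303 and 9834 CPM against 14931, 13555 and 15744 CPM (log2 fold change -0.73, SE 0.09, adjusted p 1.82e-06). miR-23b-3p was also lower, at 124, 135 and 125 CPM against 193, 180 and 181 CPM (log2 fold change -0.66, SE 0.17, adjusted p 0.0041). miR-27a-3p was higher, at 426, 463 and 429 CPM against 319, 276 and 301 CPM (log2 fold change 0.44, SE 0.12, adjusted p 0.0103). The 5p arm miR-23b-5p was lower too, at a mean of 66.3 against 112 CPM (log2 fold change -0.83, SE 0.24, adjusted p 0.0105), a call lost without DKO replicate 2 (0.0586). None of these groups overlapped, and how many of all miRNAs did not overlap was not counted. The called chromosome 8 and chromosome 13 paralogs moved in opposite directions, while miR-24-2-5p of chromosome 8 averaged 49.4 against 45.4 CPM and was not called. Markers moved in the same libraries without overlap: epiblast miRNAs summed to 130119 to 147052 CPM against 177971 to 196784 CPM, the Sfmbt2 cluster to 18209 to 23710 CPM against 14910 to 17016 CPM, and blood and endothelial miRNAs to 979 to 1197 CPM against 484 to 572 CPM. Their part in the differences of the members was not tested.

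miR-23a-3p was higher as well, at 76.1, 107 and 50 CPM against 36.7, 44.4 and 38.3 CPM (log2 fold change 0.81, SE 0.27, adjusted p 0.0254). Its call was lost in 5 of the 6 fits that leave out a library (adjusted p up to 0.0863), all but that without DKO;Dnmt-null replicate 3, and the call of miR-27a-3p without DKO replicate 2 (adjusted p 0.0611). miR-24-3p was at 112, 79.0 and 129 CPM against 147, 118 and 156 CPM (log2 fold change -0.48, SE 0.20, adjusted p 0.075) and did not pass. The share of miR-27a-3p was 4.41 ± 0.295% against 1.99 ± 0.107%, and that of miR-23a-3p 37.0 ± 7.87% against 17.7 ± 1.92% (SD, n = 3 each, no overlap in either, exact permutation p = 0.1, the smallest possible).

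At E7.5, SC embryos labelled Mir-6KO;Dnmt-null were compared with SC controls made from DKO cells, and 0 members were called by edgeR, with 3.08% of all called. The targeted miRNAs were present in the embryos so labelled, with miR-127-3p at 34218 to 51921 CPM against 52288 to 67386 CPM and let-7b-5p at 4.42 to 41.3 CPM against 18 to 33.4 CPM. The paper describes the deletions as heterozygous in SC embryos and the Dlk1-Dio3 miRNAs as expressed from the maternal copy. Reads of the targeted miRNAs are thus no check of the label in these embryos. miR-27a-3p had an unadjusted p under 0.05, the 1 member that did, at 381, 403 and 399 CPM against 168, 157 and 141 CPM. The groups lay far apart (log2 fold change 1.11, SE 0.26, adjusted p 0.0731), and DESeq2 called it (adjusted p 5.05e-04). In these libraries blood and endothelial miRNAs summed to 606 to 711 CPM against 206 to 366 CPM and epiblast markers to 77546 to 170777 CPM against 178106 to 220309 CPM, both without overlap, and their part in the result was not tested. miR-27b-3p was at 14454, 22392 and 17550 CPM against 17516, 19146 and 25706 CPM (log2 fold change -0.42, SE 0.27), with overlap. The miR-27a-3p share was 2.19 ± 0.402% against 0.770 ± 0.208% (SD, n = 3 each, no overlap, exact permutation p = 0.1, the smallest possible).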

How the data were processed

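According to the methods, the authors removed adapters from the CAS-seq reads (fastp 0.20.1), mapped what remained to GRCm38 by Bowtie 1.2.1.1 and then matched it to mature miRNAs of miRBase, allowing templated length differences at the 3′ end. The deposited values are read counts, 1 raw count for each mature miRNA in each library, not normalized, and the authors compared them with DESeq2 1.30.1. How strand and reads that match several miRNAs were handled is not given in the sources used here; 42 rows with over 50 counts repeat another row, and they hold 0.392 to 12.9% of a library's total. An earlier copy of the main table, in which 8 column names are no sample title, was not used.

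CPM, percent shares and log2 values were computed here from the deposited counts. Counts were compared with edgeR 4.0.16 (R 4.3.3) with TMM factors and filterByExpr with a count minimum of 10, with all genotypes of a tissue and stage in 1 fit, the 4 control groups in another, interactions and mutant tissue contrasts in a fit of all 16 groups, and AG-haESCs and each SC set separately. The SE is the size of the log2 fold change over the root of its F value. For shares, the difference of means was tested by exact permutation, two-sided (scipy 1.17.1). Replicates of a group differed by more than counting error (chi-squared per degree of freedom at least 4.77 over 115 pairs). Alternatives were DESeq2 1.42.0, RLE factors, library totals alone, other filters, only the groups compared, a replicate block and leaving out each library. On simulated data with 200 miRNAs changed 4-fold, edgeR recovered 61.1% of those tested for E6.5 Exe against Epi in controls and called 0.296% of the unchanged; for E7.5 Epi Dnmt-null against control these were 47.3% and 0.95%. The members, lists and rules were chosen with earlier results of these data known. Besides the members, the rule names the other arms, miRNAs with a member's seed, overlapping antisense miRNAs and, per member, the 3 miRNAs of highest Pearson correlation over groups (log2 of CPM + 1). The marker lists and the targeted miRNAs are named beside the results they touch. A further 3 libraries of a haploid line without a group were not compared.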

Additional observations from a re-analysis of the deposited data

Results flagged for a closer look

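In groups of 4 libraries, 8 of 110 sets of values had 1 library far from the others; chance gives about 1 in 20 of such sets. In E6.5 Exe Dnmt1-KO, replicate 3 had 423 CPM of miR-23a-3p against 93.9 to 110 CPM in the others, and replicate 4, which also held the blood and endothelial markers, had 3211 CPM of miR-27b-3p against 1665 to 1903 CPM. In E6.5 Exe Dnmt3a/3b-DKO, replicate 4 had 90.3 CPM of miR-23b-3p against 31.6 to 35.0 CPM. In E6.5 Epi Dnmt-null, replicate 2 had 79.8 CPM of miR-24-2-5p, from 9 counts, against 0 CPM in the other 3. In E7.5 Exe control, replicate 2 had 4.67 CPM of miR-24-2-5p against 90.1 to 100 CPM. In E7.5 Exe Dnmt1-KO, replicate 1 had a miR-27 share of 36.6% against 19.1 to 22.1%. In E7.5 Exe Dnmt-null, replicate 1 had 18.8 CPM of miR-23b-3p against 37.8 to 41.2 CPM, and replicate 4 had a miR-23 share of 0% against 73.6 to 79.5%. No difference of the Dnmt-null effect between tissues or stages was called for a member.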

How the results depend on the processing

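The lower level of miR-27b-3p in Exe than in Epi kept its direction and its call in every alternative run for its 8 comparisons. DESeq2 called more members in these comparisons: 2 in place of 0 in E6.5 Epi Dnmt-null against control, 1 in place of 0 there for Dnmt-null against each other mutant, 1 in place of 0 in E7.5 Exe Dnmt1-KO against control and Dnmt-null against Dnmt1-KO, 2, 1 and 2 in place of 0, 0 and 1 for the mutants Dnmt1-KO, Dnmt3a/3b-DKO and then Dnmt-null in E7.5 Epi, 5 in place of 3 for control tissue at E7.5, 2 in place of 0 for DKO against WT AG-haESCs, and 1 in place of 0 for Dnmt-null SC at E6.5 and for SC at E7.5. The single call in E7.5 Epi Dnmt-null fell to 0 with RLE factors, library totals alone, a mean of at least 10 counts and only the groups compared. Without a filter on low counts miR-24-3p was not called there either (log2 fold change -0.79, SE 0.47, adjusted p 0.301 by edgeR). The call between stages in Epi fell to 0 with RLE factors and without a filter, and that in Exe without a filter and with only the groups compared. Of the 5 members called between the libraries labelled Mir-6KO and DKO, 3 were called with RLE factors and 2 with library totals alone or only the groups compared. DKO against WT AG-haESCs gave 1 call with RLE factors, 1 without a filter and 2 with only the groups compared, and SC at E7.5 gave 1 with library totals alone. With only the groups compared, tissue gave 1 call in Dnmt1-KO at E6.5 in place of 2, and 4 in Dnmt3a/3b-DKO at E7.5 in place of 2. The causes were not tested.

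These values changed sign, on the log2 scale. For DKO against WT AG-haESCs, miR-23b-3p was -0.08 and became 0.30 with DESeq2, 0.30 with RLE factors, 0.16 without a filter and 0.19 with only the groups compared, and miR-24-3p was -0.30 and became 0.085 with DESeq2 and 0.085 with RLE factors. With library totals alone, miR-27b-3p became 0.054 in the libraries labelled Mir-6KO and miR-23a-3p 0.14 in Dnmt-null SC, where it was 0.054 without a filter. Without a filter, miR-27a-3p became -0.047 for control tissue at E6.5 and miR-27b-3p 0.020 for the stages in Exe. As log2 ratios of paralogs, miR-23 became 0.014 in E6.5 Epi Dnmt-null and -0.15 in E7.5 Exe Dnmt-null, and miR-27 became -0.31 in E6.5 Epi Dnmt-null and -0.025 between stages in Epi. With at least 100 counts, the miR-23 share between stages in Epi became 4.52 percentage points in place of -1.01.

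Libraries with the same replicate number did not deviate together: in none of 30 comparisons was every pair's correlation over 0.1, with values from -0.25 to 0.45, so the numbers are not taken as pairs. With the replicate block, 0 members were called in E7.5 Epi Dnmt-null and between stages in Exe and in Epi, where 1 was called in each without it. With the block miR-27a-3p became -0.065 for control tissue at E6.5 and -0.053 in Dnmt-null SC, miR-27b-3p 0.010 for the stages in Exe, miR-23a-3p -0.43 for the stages in Epi and miR-24-2-5p -0.0024 in DKO;Dnmt-null SC.

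Leaving out 1 library at a time gave 0 to 1 calls in E7.5 Exe Dnmt1-KO against control, E7.5 Exe Dnmt-null against Dnmt1-KO, E7.5 Epi Dnmt1-KO and Dnmt-null against control, each comparison of stages, and the Dnmt-null effect in Epi at E7.5 minus E6.5. It gave 1 to 2 calls for tissue in Dnmt1-KO at E6.5, Dnmt1-KO at E7.5 and Dnmt-null at E6.5. For control tissue it gave 2 to 3 calls at E6.5 and 3 to 4 at E7.5, and for DKO;Dnmt-null SC 3 to 4. For control tissue at E6.5 miR-23a-3p ranged from -1.08 to 0.24 and miR-27a-3p from -0.14 to 0.28. Between stages in Exe miR-24-2-5p ranged from -0.36 to 0.26 and miR-27b-3p from -0.20 to 0.077, and in Epi miR-23a-3p from -0.53 to 0.915, miR-27a-3p from -0.84 to 0.019 and miR-23b-3p from -0.062 to 0.29. miR-24-2-5p ranged from -0.10 to 0.71 for DKO against WT AG-haESCs and from -0.19 to 0.27 for DKO;Dnmt-null SC. In Dnmt-null SC miR-23a-3p ranged from -1.74 to 0.44, miR-27a-3p from -0.96 to 0.73 and miR-23b-3p from -1.31 to 0.016. In DKO SC miR-23b-3p ranged from -0.76 to 0.076 and miR-24-3p from -1.96 to 0.11, and in SC at E7.5 miR-23b-3p from -1.17 to 0.26. In percentage points, the miR-23 share difference ranged from -14.0 to 22.7 in E6.5 Exe Dnmt-null, from -8.30 to 5.27 in E6.5 Epi Dnmt-null, from -9.28 to 27.4 and from -5.36 to 4.52 between stages in Exe and Epi, and from -0.0037 to 14.0 in Dnmt-null SC. That of miR-27 ranged from -0.27 to 1.69 in E6.5 Epi Dnmt-null, from -1.68 to 2.18 in E7.5 Exe Dnmt-null, from -0.49 to 0.68 between stages in Epi and from 6.26 to 11.7 for control tissue at E6.5. Levels under 66.3 CPM at E6.5 can be 3 counts or fewer in the shallowest library. Some E6.5 group means of miR-23a-3p, miR-23b-3p, miR-24-3p and miR-24-2-5p lay under that level.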

Other observations

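AG-haESC line 408 is put in no group by the labels, and its 3 libraries are given as values. miR-27b-3p was at 17032, 17622 and 17907 CPM and miR-23b-3p at 337, 362 and 348 CPM. miR-27a-3p was at 344, 356 and 405 CPM and miR-23a-3p at 268, 240 and 246 CPM. miR-24-3p was at 189, 162 and 215 CPM and miR-24-2-5p at 36.3, 41.5 and 39.8 CPM.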
